A study of Mus musculus with 12 samples.

Results

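The genotype effect described here is the one that skeletal muscle of Cox6a2-/- (KO) mice showed under both muscle labels of the series, diaphragm and gastrocnemius (spelled gastrocnimius in the labels). For each gene it is the average of 2 differences, KO minus WT within diaphragm and KO minus WT within gastrocnemius, on the log2 scale. The genes of interest are those whose average passed the test and whose difference had the same sign under both labels. They are called shared genes here, and there were 1991 of them among the 19938 genes measured (9.99%). The name does not mean that both differences passed. Taken singly, the diaphragm difference passed for 1623 of the shared genes (81.5%) and the gastrocnemius difference for 73 (3.67%). The condition of the same sign removed only 13 of 2004 genes whose average passed. That low count is no sign of agreement between the muscles. The fit of the average counts a gap between the 2 differences as spread, so genes with opposite signs could seldom pass.

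RNA was taken from diaphragm and gastrocnemius of male mice of the C57Bl6 strain label, 10-12 weeks old. The 12 arrays (mouse Gene 1.0 ST) form 4 groups of 3 biological replicates: KO diaphragm, WT diaphragm, KO gastrocnemius and WT gastrocnemius. The KO mice lack Cox6a2 in the whole body, and the WT mice were C57BL/6J animals matched for age and sex from a commercial supplier, so that a difference in background between the colonies cannot be told apart from the deletion. The values are log2 signals, and the number of arrays limits their precision.

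COX6A2 is the heart and skeletal muscle form of a subunit of cytochrome c oxidase, or complex IV, the last enzyme of the respiratory chain. The chain passes electrons from NADH and succinate to oxygen and pumps protons across the inner mitochondrial membrane, and complex V uses that gradient to make ATP. Muscle fibers adjust the amount of this machinery through transcriptional coactivators of the PGC-1 family, and they answer contraction, stress and circulating signals within minutes through immediate-early genes.

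The 3 arrays labelled WT diaphragm did not carry the RNA that marks a diaphragm, and every average rests on them in part. All 12 arrays held skeletal muscle RNA, with a mean log2 signal of 12.63 to 12.97 over 12 genes of the skeletal fiber. Over 8 marker genes of mesothelium, the cell layer that covers the diaphragm, the mean log2 signal was 5.29 to 5.34 on the arrays labelled WT diaphragm, 5.33 to 5.55 in WT gastrocnemius and 5.19 to 5.23 in KO gastrocnemius, against 7.78 to 8.61 in KO diaphragm. Over 10 hindlimb position genes, mostly of the Hox clusters, it was 6.68 to 6.87 on the arrays labelled WT diaphragm and 6.70 to 6.8 in both gastrocnemius groups, against 5.39 to 5.57 in KO diaphragm. The WT labels differed from each other in 92 genes, while KO diaphragm differed from KO gastrocnemius in 5767 (28.9%). Among the shared genes, 1029 (51.7%) differed between the KO muscles. A difference between muscles can therefore enter the diaphragm difference and, through it, the average, where it cannot be told apart from a genotype effect. The gastrocnemius difference uses none of the arrays labelled WT diaphragm, and the 2 differences share no array. Its test does depend on them, since the spread of each gene was estimated over all 12 arrays. Fitted without them, the genes called in gastrocnemius went from 118 to 77.

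The deleted gene checked the genotype labels. Cox6a2 had log2 signals of 11.84, 11.75 and 12.06 on the arrays labelled WT diaphragm and 7.02, 6.71 and 6.94 in KO diaphragm. The gastrocnemius values were 11.84, 11.65 and 11.73 in WT and 6.71, 7.18 and 6.91 in KO. All 6 KO arrays lay below all 6 WT arrays, and the average difference was -4.90 (standard error 0.094; exact permutation test within each muscle, two-sided p = 0.005, the smallest that 400 arrangements allow).

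Beyond Cox6a2, the shared effect was made of many small differences and a few large ones. Of the 1991 shared genes, 1243 were higher (6.23% of all genes) and 748 were lower (3.75%) in KO mice. That split moved with the scaling, since quantile normalization of the same arrays gave 1004 higher and 1023 lower genes. The median average was 0.42 for the higher and -0.33 for the lower genes, and 72 shared genes had an average beyond 2-fold. The difference was larger under the diaphragm label for 1589 shared genes (79.8%). In the higher genes the median difference was 0.57 in diaphragm and 0.25 in gastrocnemius, and in the lower genes it was -0.38 and -0.25. Across all genes, which are not independent of each other, the diaphragm and gastrocnemius differences correlated at only 0.0865, and 58% of genes had the same sign under both labels.

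**Figure D1:**
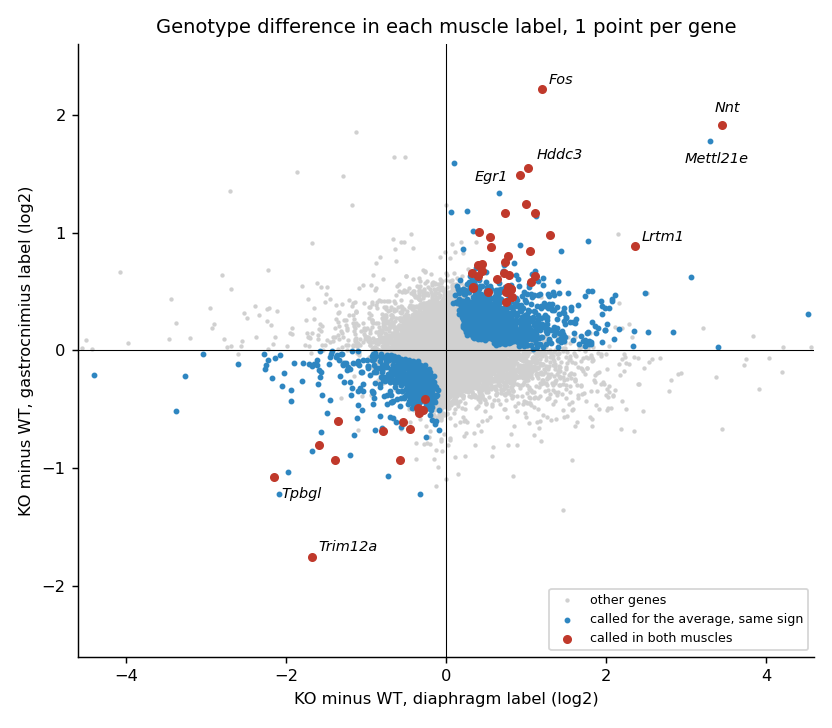
Difference KO minus WT (log2) under the diaphragm label (horizontal axis) and the gastrocnimius label (vertical axis), 1 point per gene; blue points are shared genes and red points are the genes called under both labels. Of 19938 genes, 4 lie beyond the axes, among them Cox6a2, and the blue cloud is stretched along the horizontal axis, since 79.8% of shared genes differed more under the diaphragm label.

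A stricter reading asks which genes passed the test of each muscle's own difference, with a spread estimated over all 4 groups. In diaphragm 5496 genes (27.6%) passed, and in gastrocnemius 118 (0.592%). Both tests were passed in the same direction by 48 genes (0.241%), 34 higher and 14 lower in KO mice including Cox6a2, and all 48 were shared genes. Another 15 genes passed both tests in opposite directions. For 29 of the 48 the KO diaphragm and KO gastrocnemius arrays did not differ by the test. The KO muscles differed by it in 28.9% of all genes, so the 48 were not freer of a muscle difference than genes at large. Without the arrays labelled WT diaphragm, 31 of the 48 passed in gastrocnemius on the other 9 arrays. That fit is no separate check, since the 48 were selected on the same gastrocnemius arrays and only the estimate of spread changed. The group means differed by genotype more in one muscle than in the other (interaction) for 2958 genes (14.8%), among them 518 shared genes, of which 513 differed more under the diaphragm label. In 1450 genes (7.27%) the 3 KO arrays lay wholly to one side of the 3 WT arrays in the same direction within each muscle, and 1127 of these were shared genes.

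The gene with the largest shared increase was Nnt, which encodes the mitochondrial nicotinamide nucleotide transhydrogenase, an enzyme of the inner membrane that makes NADPH for the removal of peroxides. Its log2 signal was 8.34, 8.04 and 8.73 on the arrays labelled WT diaphragm and 11.86, 11.67 and 11.92 in KO diaphragm. The gastrocnemius signals were 8.10, 8.47 and 8.30 in WT and 10.12, 10.42 and 10.07 in KO. The lowest KO array was thus above the highest WT array in the whole series, and KO diaphragm was above KO gastrocnemius. The average was 2.68 (standard error 0.24, adjusted p = 1.5e-04), from 3.45 in diaphragm and 1.91 in gastrocnemius, and these differed from each other (interaction, adjusted p = 3.5e-04). As background, a deletion within Nnt is known from the C57BL/6J substrain.

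By the smaller of its differences, the largest shared decrease after Cox6a2 was that of Trim12a, a member of a cluster of antiviral TRIM genes. It read 4.96, 5.27 and 4.92 on the arrays labelled WT diaphragm, 2.90, 3.74 and 3.46 in KO diaphragm, 5.13, 5.11 and 5.51 in WT gastrocnemius and 3.65, 3.51 and 3.35 in KO gastrocnemius. The differences were -1.69 and -1.75, with an average of -1.72 (standard error 0.13, adjusted p = 3.5e-05), and no KO array reached a WT array. Its neighbour and close paralogue Trim12c went the other way, with an average of 0.79 (1.03 in diaphragm and 0.54 in gastrocnemius, adjusted p of the average 0.021). Probes on such related genes can bind each other's transcripts, so that the split between the pair is uncertain. Of 13 genes listed for known differences between C57BL/6 substrains or related inbred lines, 4 were higher and 2 lower as shared genes, where 6.23% and 3.75% of all genes were. The list was written with earlier results of these data known and includes Nnt, Trim12a and Trim12c, so these counts are a description only. Nnt, Trim12a and Wdfy1 (average 0.69) passed in both muscles.

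**Figure D2:**
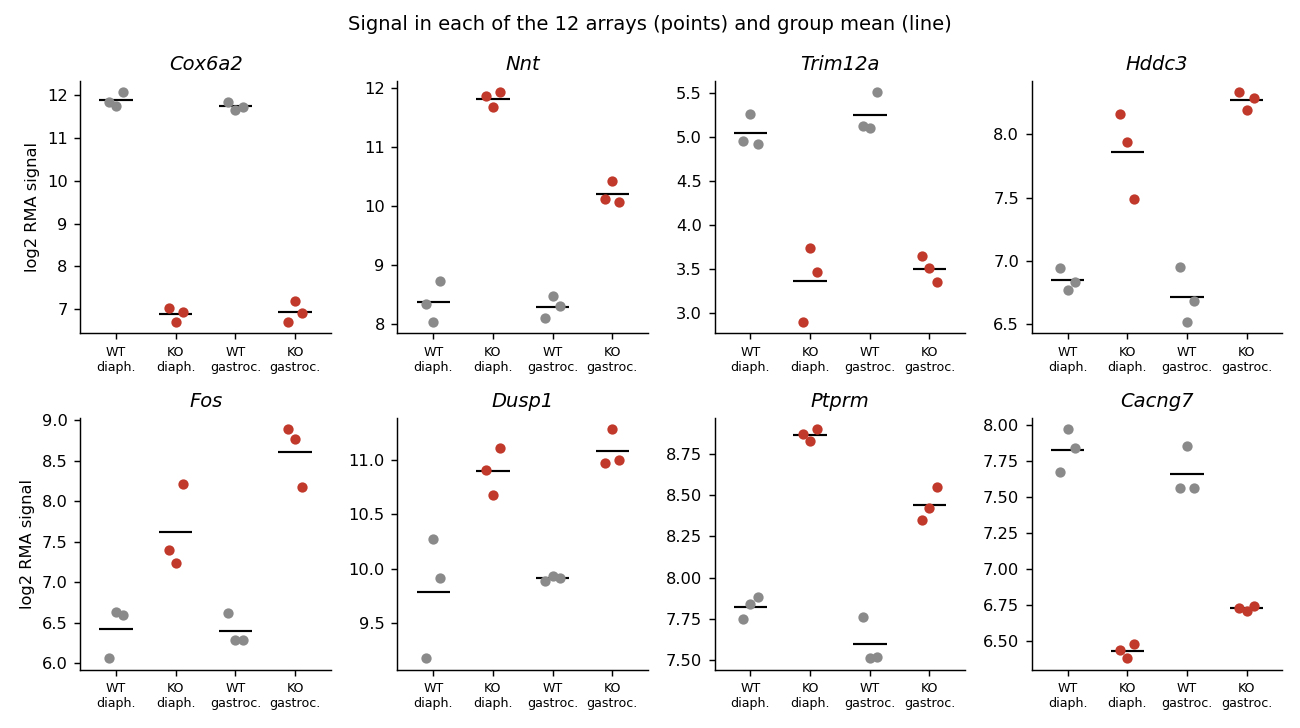
Log2 RMA signal (vertical axes) of 8 genes on the 3 arrays of each group (horizontal axes, by label); points are arrays and lines are group means, with KO in red and WT in grey. In each panel no KO array overlaps the WT arrays of the same label, which for genes ranked as highest or lowest was a condition of the ranking. For Nnt the KO diaphragm arrays stand highest, from 11.67 to 11.92.

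Beside Nnt, 11 genes led the increases by the smaller of their differences among genes whose arrays did not overlap in either muscle. Mettl21e, a methyltransferase of muscle, differed by 3.30 in diaphragm and 1.78 in gastrocnemius, with 1 KO gastrocnemius array at 7.75 and the others at 5.69 and 5.46. Hddc3, a phosphohydrolase that removes pyrophosphate from nucleotides, was at 6.94, 6.77 and 6.83 on the arrays labelled WT diaphragm, and 8.16, 7.94 and 7.49 in KO diaphragm. In gastrocnemius it was at 6.95, 6.52 and 6.68 in WT and 8.33, 8.19 and 8.29 in KO (average 1.28, standard error 0.13, adjusted p = 4.8e-04). Hddc3 differed by 1.55 in gastrocnemius and 1.01 in diaphragm, a gap that did not pass the test (interaction, adjusted p = 0.11). Lrtm1, a leucine-rich membrane protein gene, rose more in diaphragm (2.35) than in gastrocnemius (0.89; interaction, adjusted p = 2.1e-04). Rny3, a small noncoding RNA of the Ro particle, differed by 1.78 and 0.93, and Apold1, an early response gene of blood vessels, by 0.92 and 0.89. The other members of this top group were Fos, Dusp1, Btg2, Otud1, Sik1 and Egr1, which are described with the immediate-early genes.

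Among the other decreases, some passed in both muscles. Tpbgl, a leucine-rich repeat membrane protein gene, was at 9.54, 9.40 and 9.52 on the arrays labelled WT diaphragm against 7.28, 7.32 and 7.38 in KO diaphragm, and at 9.83, 9.59 and 9.59 in WT gastrocnemius against 8.69, 8.61 and 8.50 in KO gastrocnemius. Cacng7, which encodes a regulatory protein of calcium channels and glutamate receptors, fell by 1.39 in diaphragm and by 0.93 in gastrocnemius (average adjusted p = 7.3e-05). Slc7a2, a transporter of arginine and lysine, fell by 1.59 and 0.80, Arhgef17 by 1.36 and 0.60, and Polh, a DNA polymerase that copies past ultraviolet damage, by 0.80 and 0.68. The interaction passed for Tpbgl, Cacng7, Slc7a2 and Arhgef17, each with the larger decrease in diaphragm, and did not pass for Polh. Others passed for the average but not in gastrocnemius alone. Tbc1d1, a Rab regulator of glucose transporter traffic, differed by -1.99 in diaphragm and -1.03 in gastrocnemius (adjusted p = 0.13 in gastrocnemius), Fbp2, the muscle fructose bisphosphatase, by -1.57 and -0.69 (0.12), Eda2r, a receptor of the ectodysplasin family, by -1.21 and -0.89 (0.11), and Thbs4, a matrix protein of muscle and tendon, by -0.74 and -1.06 (0.073). Tmem100, Sbk2 and Wif1, an inhibitor of WNT signals, completed the 12 largest decreases without overlap, with averages of -1.26, -0.78 and -0.73.

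Many immediate-early genes were higher in KO mice under both labels, with the larger median difference in gastrocnemius. They encode transcription factors and brakes on signalling whose transcripts appear within minutes of a stimulus and decay quickly. Of 32 listed genes, 11 were shared genes that were higher and 2 that were lower in KO mice, where 6.23% and 3.75% of all genes were, and 7 of the 11 passed in both muscles. Their median difference was 0.15 in diaphragm and 0.54 in gastrocnemius, where the medians over all genes were -0.04 and -0.02, and 21 of the 32 had an unadjusted p under 0.05 in gastrocnemius, which 16.4% of all genes reached. The count of 11 higher genes was the same after median centring, after quantile normalization and with the replicate block, and it was 11 or 12 when any single array was left out. The count of 7 that passed in both muscles was 2 to 8 when single arrays were left out: 2 without replicate 3 of WT or replicate 2 of KO gastrocnemius, and 3 without replicate 2 of WT or replicate 1 of KO gastrocnemius.

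The sequences before 3 of these genes are shown because each holds TGACGT, the core of the site that CREB family factors bind, on one strand or the other. The stretches are the 250 bases before the RefSeq start of each gene (GRCm38.p6), written along the gene's strand, with capitals marking TGACGT and its reverse complement ACGTCA. They lie at chr12:85473640-85473889 on the plus strand for Fos, chr1:134079156-134079405 on the minus strand for Btg2 and chr17:26508473-26508722 on the minus strand for Dusp1.
Fos: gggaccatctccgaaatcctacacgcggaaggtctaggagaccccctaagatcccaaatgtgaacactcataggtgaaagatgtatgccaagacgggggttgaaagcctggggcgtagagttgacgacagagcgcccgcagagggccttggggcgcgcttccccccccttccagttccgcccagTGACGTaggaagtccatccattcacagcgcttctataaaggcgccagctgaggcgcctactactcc
Btg2: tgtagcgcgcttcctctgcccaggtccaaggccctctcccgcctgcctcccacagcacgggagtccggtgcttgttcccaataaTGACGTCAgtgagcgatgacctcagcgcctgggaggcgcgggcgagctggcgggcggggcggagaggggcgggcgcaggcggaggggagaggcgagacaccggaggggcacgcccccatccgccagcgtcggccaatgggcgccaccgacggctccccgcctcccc
Dusp1: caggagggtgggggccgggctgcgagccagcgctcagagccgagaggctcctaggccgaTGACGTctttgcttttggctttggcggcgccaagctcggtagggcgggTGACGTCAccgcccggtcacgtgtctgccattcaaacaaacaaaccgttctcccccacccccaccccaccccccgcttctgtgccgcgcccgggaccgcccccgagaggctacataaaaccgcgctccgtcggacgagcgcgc

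In Fos this core starts 66 bases before the start of the gene. Btg2 and Dusp1 hold the longer palindrome TGACGTCA, where the match on one strand overlaps that on the other, at 166 and 143 bases before the start, and Dusp1 has a further TGACGT at 191. Of the 9 shared higher immediate-early genes with a promoter in the RefSeq table, these 3 hold TGACGT on either strand (33.3%), and so do 7.29% of the 27025 genes with a promoter there. The AP-1 motif TGANTCA was in 1 of the 9 (Csrnp1), against 7.82% of all genes. Other motifs searched were held as often as TGACGT, which is thus not particular to these promoters. The E-box CACGTG and the motif TGACNNNGC were each in 3 of the 9, against 6.86% and 11.5% of all genes. A match of letters is a description and no evidence of binding.

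Fos, a partner in the AP-1 transcription factor, had log2 signals of 6.06, 6.63 and 6.59 on the arrays labelled WT diaphragm and 7.40, 7.24 and 8.21 in KO diaphragm. For gastrocnemius the values were 6.62, 6.28 and 6.29 in WT and 8.89, 8.77 and 8.18 in KO. The groups did not overlap within either muscle, which was a condition for the top group of increases. The average was 1.70 (standard error 0.22, adjusted p = 0.0028). Fos differed by 1.19 in diaphragm and by 2.21 in gastrocnemius, a gap between the muscles that did not pass the test (interaction, adjusted p = 0.057). Egr1, a zinc finger factor of growth signalling, followed with 0.92 in diaphragm and 1.49 in gastrocnemius (average adjusted p = 0.0073).

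Dusp1, a phosphatase that shuts off MAP kinases, was at 9.18, 10.27 and 9.92 on the arrays labelled WT diaphragm, and 10.91, 10.68 and 11.11 in KO diaphragm. In gastrocnemius it was at 9.89, 9.93 and 9.92 in WT and between 10.97 and 11.28 on the 3 arrays of KO. The differences were 1.11 and 1.17 (standard error 0.20 for each), and the average was 1.14 (adjusted p = 0.0026). Btg2, an antiproliferative cofactor of mRNA decay, rose on average by 1.13 (1.11 in diaphragm and 1.14 in gastrocnemius). Zfp36, which binds AU-rich messages and speeds their decay, rose by 0.95, Klf2, a factor of blood vessels and resting cells, by 0.87, Fosb by 0.76 and Csrnp1 by 0.56. Ier2, Klf4 and Klf6 were shared genes with averages of 0.64, 0.56 and 0.54, without passing in gastrocnemius alone.

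Not all immediate-early genes moved this way. Gadd45b (average -0.58) and Ier3 (-0.22) were lower shared genes, and Jun, Junb, Egr2, Egr3 and Myc did not pass for the average. Nr4a1 and Nr4a3, nuclear receptors induced by exercise, had differences of opposite sign, -0.67 and -1.30 in diaphragm against 0.94 and 1.48 in gastrocnemius. Outside the list, other inducible genes were among those called in both muscles: Sik1, a kinase that restrains CREB coactivators (1.30 in diaphragm, 0.98 in gastrocnemius), Otud1, a deubiquitinase (0.99 and 1.24), Rhob (0.76 and 0.80), Id1, an inhibitor of helix-loop-helix factors (0.73 and 0.75), and Dnajb1, a heat shock cochaperone (0.63 and 0.61). These 5 were grouped after their values were seen.

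**Figure D3:**
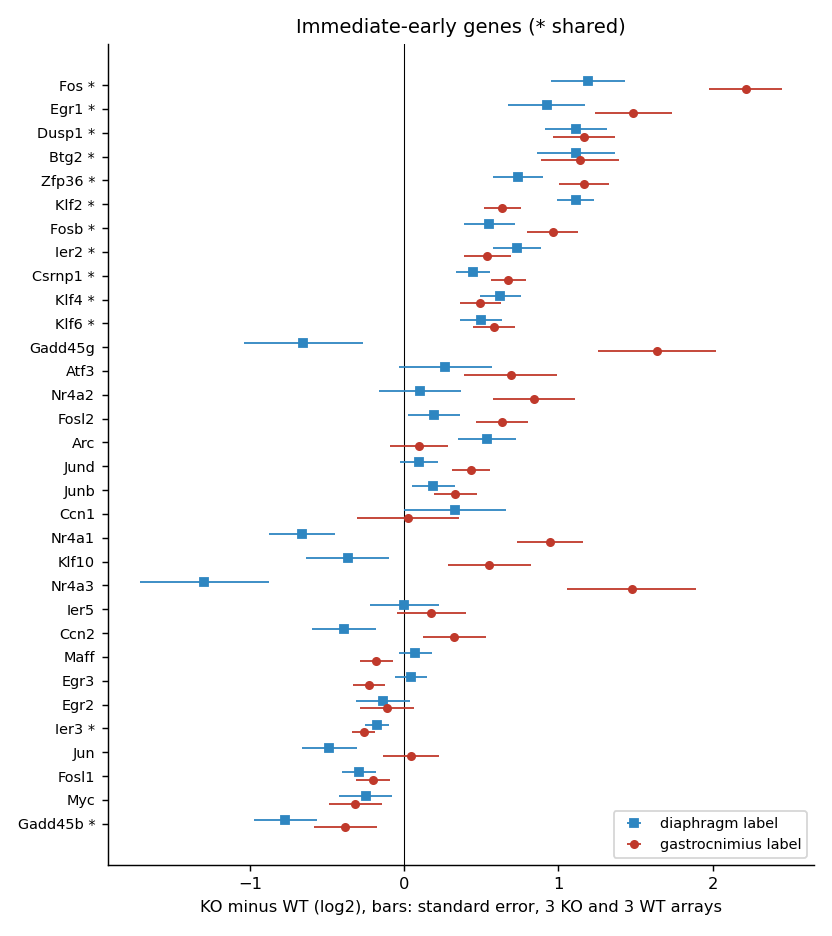
Difference KO minus WT (log2, horizontal axis) of the 32 immediate-early genes (vertical axis, ordered by their average), with blue squares for the diaphragm label and red circles for the gastrocnimius label. Bars are standard errors for a difference of 3 KO and 3 WT arrays, with a spread pooled over all 4 groups and drawn toward that of other genes. They have the same length under both labels of a gene, and an asterisk marks a shared gene. The 11 shared higher genes lie to the right of 0 under both labels, while Nr4a1 and Nr4a3 lie on opposite sides.

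Subunits of the respiratory chain were higher by small steps in every complex. Of 34 measured subunits of complex I, which takes electrons from NADH, 17 were shared higher genes and none was a shared lower gene, with a median average of 0.31. The corresponding counts were 3 of 4 for complex II, 6 of 10 for complex III with cytochrome c, 9 of 14 for complex IV without Cox6a2 and 8 of 16 for complex V. Together 43 of these 78 subunits were shared higher genes, where 6.23% of all genes were, and no subunit passed the test in gastrocnemius on its own. The median difference in gastrocnemius was 0.20 for complex I, 0.24 for complex III, 0.17 for complex IV and 0.16 for complex V, against -0.02 over all genes, and in diaphragm it was 0.40, 0.41, 0.53 and 0.32. An unadjusted p under 0.05 in gastrocnemius was reached by 27 of the 78, where 16.4% of all genes reached it.

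The count of 43 depended on the diaphragm arrays: it was 18 to 28 without any 1 of the 6 arrays of that label, 34 to 41 without any 1 of the gastrocnemius arrays, 32 after quantile normalization and 27 with the replicate block. Under each of these settings 0 subunits were shared lower genes. Oxidative muscle holds more of this machinery, and the mean log2 signal over 15 contractile genes of oxidative fibers was 11.15 to 11.31 in KO diaphragm, 9.85 to 10.36 on the arrays labelled WT diaphragm, 9.95 to 10.52 in WT gastrocnemius and 10.14 to 10.66 in KO gastrocnemius. The part of muscle type in the diaphragm differences was not tested. In gastrocnemius the median difference over these contractile genes was 0.05.

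Within complex IV, the gene of the paralogous subunit, Cox6a1, was at 7.97, 7.21 and 7.68 on the arrays labelled WT diaphragm, and 8.33, 8.32 and 7.92 in KO diaphragm. It was at 7.67, 7.33 and 7.48 in WT gastrocnemius and at 7.73, 7.85 and 7.99 in KO gastrocnemius, so that 1 KO diaphragm array, at 7.92, lay below the highest WT array. The average was 0.47 (standard error 0.13, adjusted p = 0.036), with 0.57 in diaphragm and 0.36 in gastrocnemius. Cox5a, a subunit on the matrix side, differed by 0.34 and 0.39, Cox7b by 0.61 and 0.29, and Cox7a1, a muscle form like Cox6a2, by 0.70 and 0.27 (interaction, adjusted p = 0.036).

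Among the other complexes, Ndufab1, the acyl carrier protein of complex I, differed by 0.56 in diaphragm and 0.38 in gastrocnemius (average adjusted p = 0.0061). It was at 9.89, 9.82 and 9.87 on the arrays labelled WT diaphragm, and 10.42, 10.25 and 10.57 in KO diaphragm. In gastrocnemius the signal was 9.82, 9.97 and 9.75 in WT and 10.19, 10.24 and 10.23 in KO, with no overlap in either muscle. Atp5k, a subunit of the complex V membrane part, and Uqcr10, a small subunit of complex III, differed more in gastrocnemius (0.53 and 0.51) than in diaphragm (0.29 and 0.16), a gap that did not pass the test for either (interaction, adjusted p = 0.38 and 0.19). Cyc1, the cytochrome c1 of complex III, differed by 0.57 and 0.34, and Sdhb, the iron-sulfur subunit of complex II, by 0.64 and 0.28. Ndufa1, a small complex I subunit encoded on the X chromosome, differed by 0.60 and 0.39. The motif GCGCATGC, the core of the site of nuclear respiratory factor 1, was found on either strand in the 250 bases before 5 of the 35 shared subunits with a promoter in the table (14.3%; Ndufa8, Sdhb, Cycs, Cox6a1 and Atp5k), and before 2.56% of all genes.

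The machinery that makes and feeds the chain went the same way to different degrees. Of 76 proteins of the mitochondrial ribosome, which translates the subunits encoded in mitochondria, 18 were shared higher genes, where 6.23% of all genes were, and none was a shared lower gene. The median was 0.17 in diaphragm and 0.18 in gastrocnemius, and 22 of the 76 had an unadjusted p under 0.05 in gastrocnemius, against 16.4% of all genes. The count of 18 was 9 without KO diaphragm replicate 1 or 3, 10 without replicate 3 of the arrays labelled WT diaphragm and 12 after quantile normalization. Mrps36, a small protein also tied to the ketoglutarate dehydrogenase complex, differed by 0.48 and 0.47, and Mrps25 and Mrpl18 had averages of 0.40 and 0.41. Of 17 genes of pyruvate dehydrogenase and the citric acid cycle 11 were shared higher genes, against 6.23% of all genes. Among them was Suclg2, a subunit of succinyl-CoA ligase (0.95 in diaphragm and 0.36 in gastrocnemius). That count was 1 to 3 without any 1 of the 6 diaphragm arrays, and 3 with the replicate block. Of 18 complex IV assembly factors, only Taco1, Sco1 and Lrpprc were shared genes, all higher, with averages of 0.39, 0.31 and 0.28.

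The increases in fatty acid oxidation rested on the diaphragm label. Of 20 enzymes and transporters, 10 were shared higher genes, where 6.23% of all genes were. The median difference was 0.97 in diaphragm but 0.06 in gastrocnemius, and the interaction passed for 17, against 14.8% of all genes. Acaa2, the thiolase of the last step, differed by 1.38 in diaphragm and 0.37 in gastrocnemius. No member passed in gastrocnemius, 1 had an unadjusted p under 0.05 there, and the count was 1 to 3 without any 1 of the 6 diaphragm arrays. Between the KO muscles themselves 19 of the 20 genes passed, against 28.9% of all genes.

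**Figure D4:**
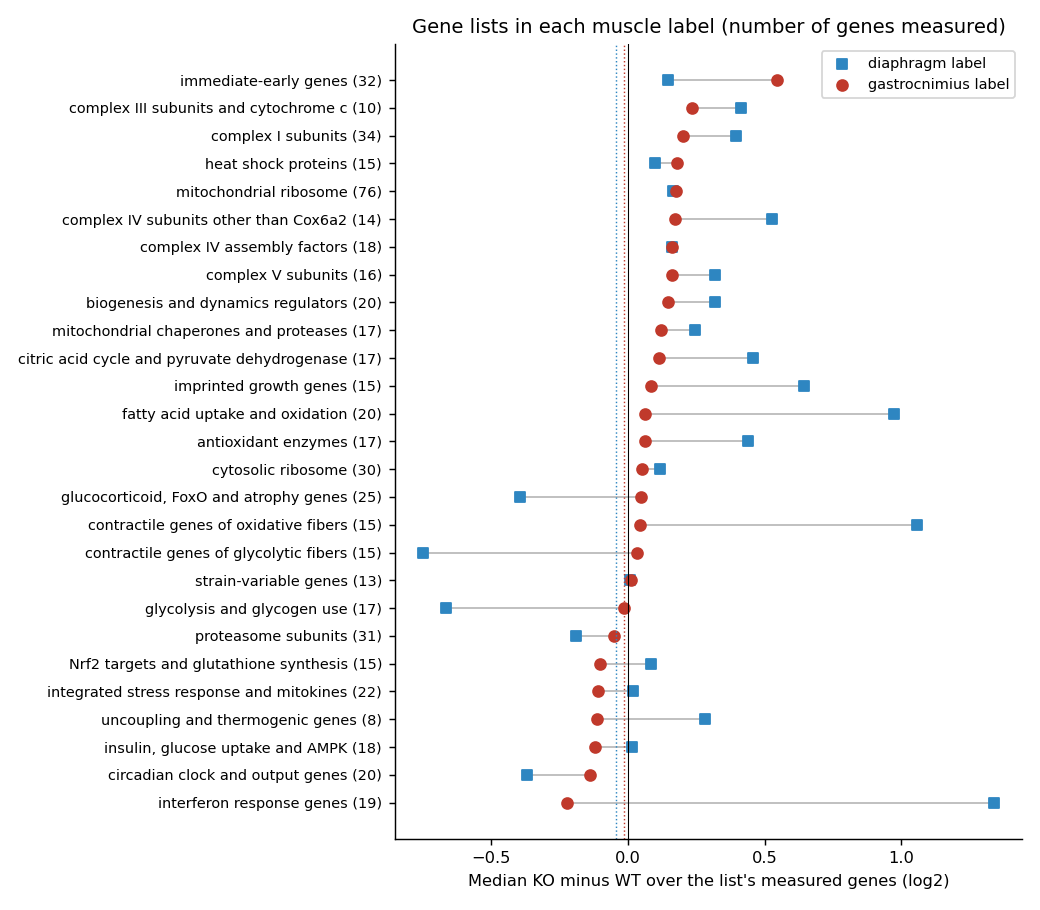
Median difference KO minus WT (log2, horizontal axis) over the measured genes of each list (vertical axis, number of genes in parentheses), with blue squares for the diaphragm label, red circles for the gastrocnimius label and dotted lines for the medians over all genes. The immediate-early genes stand highest in gastrocnemius at 0.54, and fatty acid oxidation, at 0.97 and 0.06, shows one of the wide gaps between the labels.

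Regulators of mitochondrial content were also among the higher genes. Of 20 listed, 10 were shared higher genes, against 6.23% of all genes, and none was a shared lower gene. The median was 0.32 in diaphragm and 0.15 in gastrocnemius. The count was 3 to 6 without any 1 of the 6 diaphragm arrays, and 7 with the replicate block. Ppargc1a, which encodes the coactivator PGC-1 alpha, was at 9.62, 8.66 and 8.40 on the arrays labelled WT diaphragm, and 10.57, 9.98 and 9.46 in KO diaphragm, where the lowest KO array was below the highest WT array. In gastrocnemius it was at 8.04, 8.01 and 7.94 in WT and at 8.29, 8.98 and 8.73 in KO, without overlap. Its average was 0.89 (standard error 0.22, adjusted p = 0.029), with 1.11 in diaphragm and 0.67 in gastrocnemius, where it did not pass alone (adjusted p = 0.27). Ppargc1b, its relative, differed by 0.50 and 0.51, Ppara, the lipid-activated receptor, by 1.31 and 0.39, and Tfb1m, a methyltransferase of mitochondrial ribosomal RNA, by 0.48 and 0.43. Esrrb, Mfn1, Gabpa, Dnm1l, Esrrg and Opa1 completed the 10, with averages from 0.70 down to 0.27.

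Genes of stress and defence were mixed. The counts here stand beside 6.23% shared higher and 3.75% shared lower genes among all genes. Of 17 antioxidant enzymes 6 were shared higher genes, led by Nnt, with Prdx3, Gpx4 and Txn2, which act in mitochondria, at averages of 0.37, 0.36 and 0.25. Of 15 targets and partners of Nrf2, the factor that switches on glutathione synthesis, 1 was higher and 3 were lower: Gsta4, a glutathione transferase (average 0.91), against Osgin1 (-0.97), Gclm, the modifier subunit of glutamate cysteine ligase (-0.73), and Keap1, the inhibitor of Nrf2 (-0.30). Of 22 genes of the integrated stress response and mitokines, Atf5 was higher (0.33) and Atf4 (-0.32), Vldlr (-0.46) and Chac1 (-0.87) were lower, each with the same sign under both labels. None of the 8 measured uncoupling and thermogenic genes was a shared gene, while Ucp2 and Fndc5 of that list had no value among the 19938 genes and were not analysed here. In mitochondrial chaperones and proteases 4 of 17 were higher, with Oma1, a protease of the inner membrane, at 0.61 and 0.46, but that count was 1 without any 1 of the 6 diaphragm arrays or with the replicate block.

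The shared clock genes were mostly lower. Of 20 genes of the circadian clock and its outputs, 2 were shared higher and 8 shared lower genes, where 6.23% and 3.75% of all genes were. The median average of the list was -0.22. Cry2, a repressor of the clock, was at 8.17, 7.91 and 8.03 on the arrays labelled WT diaphragm, and 7.02, 6.98 and 6.93 in KO diaphragm. For gastrocnemius the signals were 8.26, 8.72 and 8.41 in WT and 7.74, 7.98 and 8.15 in KO, lower in each muscle without overlap (average -0.78, adjusted p = 0.0061). Per2, another repressor, differed by -0.83 and -0.55 and Rora, a nuclear receptor of the clock, by -0.88 on average. Tef, Bhlhe41, Usp2, Hlf and Cry1 had averages from -0.75 to -0.28. Higher were Clock, the activator (0.40 in diaphragm and 0.41 in gastrocnemius), and Nr1d1, the repressor REV-ERB alpha (0.50 in each). The count of lower genes was 4 with the replicate block and 2 to 4 without any 1 of the 6 diaphragm arrays. The E-box CACGTG, the motif of the clock activators, was in the 250 bases before 3 of the 7 lower genes with a promoter in the table (Cry1, Tef and Bhlhe41), and before 6.86% of all genes. It was not particular to clock genes. It also lay before 3 of the 9 shared higher immediate-early genes with a promoter there (33.3%) and 4 of the 35 shared respiratory subunits (11.4%).

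Glycolysis and the proteasome made up part of the lower genes, which were 3.75% of all genes, with 6.23% shared higher. Of 17 genes of glycolysis and glycogen use 8 were shared lower genes, but their median difference was -0.66 in diaphragm and -0.01 in gastrocnemius. Slc16a3, the lactate exporter of fast fibers, differed by -4.41 and -0.21, and 1 unadjusted p in 17 was under 0.05 in gastrocnemius. With the replicate block, or without any 1 of the 6 diaphragm arrays, 0 members were shared lower genes, and after median centring it was 1. Of 31 proteasome subunits, 8 were shared lower genes and Psma7 was higher. Psmd8, a subunit of the regulatory particle, fell by 1.10 in diaphragm and differed by -0.47 in gastrocnemius, and Psmc1, an ATPase of the same particle, by -0.44 and -0.35. The median over the 31 was -0.19 in diaphragm and -0.05 in gastrocnemius, and the shared lower count was 4 after median centring, 11 after quantile normalization and 2 without any 1 of the 6 diaphragm arrays.

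Genes of the contractile apparatus differed mainly under the diaphragm label. For their counts, the shares over all genes were 6.23% shared higher and 3.75% shared lower. Of 15 contractile genes of oxidative fibers, 4 were shared higher genes: Casq2, Myl2, Myh2 and Mb. Casq2, the calsequestrin of slow fibers and heart, rose by 3.06 in diaphragm and differed by 0.62 in gastrocnemius (adjusted p = 0.087), at 7.94, 8.22 and 8.31 in KO against 7.34, 7.57 and 7.69 in WT, which did not overlap. Of 15 contractile genes of glycolytic fibers, Myh1 was higher (0.84 and 0.10) and Mylk2 lower (-2.28 and -0.03), neither with a passing difference in gastrocnemius. Of 10 satellite cell and myogenic genes 2 were shared lower genes: Myf6 (-1.26 and -0.11) and Myod1, a myogenic determination factor, which differed by -1.12 and -0.58 and in which no KO array reached a WT array.

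Of 300 measured microRNA genes, 17 were shared genes (5.67%, against 9.99% of all genes), 6 higher and 11 lower. Of these, 2 passed in both muscles, Mir23a and Mir27a, neighbours in 1 cluster with Mir24-2 on chromosome 8. The mature sequences are shown, since they identify what the hairpins encode; the seed, bases 2 to 8, is in capitals, and the sequences are those of RefSeq (GRCm38.p6).
mmu-miR-23a-3p: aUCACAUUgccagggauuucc
mmu-miR-27a-3p: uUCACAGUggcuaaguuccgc
mmu-miR-24-3p: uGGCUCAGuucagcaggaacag

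The 3 seeds are different, and the hairpins lie within 404 bases on the plus strand, at chr8:84208518-84208592 for Mir23a, chr8:84208672-84208758 for Mir27a and chr8:84208815-84208921 for Mir24-2. The array labels RNA by random priming, so that its probe sets read the hairpin or the primary transcript, not the mature microRNA. Mir23a was at 6.49, 6.51 and 6.49 on the arrays labelled WT diaphragm and 7.04, 6.95 and 6.68 in KO diaphragm. In gastrocnemius it was at 6.28, 6.74 and 6.22 in WT and 7.16, 7.04 and 7.22 in KO, higher without overlap in each muscle (average 0.56, adjusted p = 0.011). Mir27a differed by 0.39 in diaphragm and 0.64 in gastrocnemius, and all its KO arrays lay above all its WT arrays (average adjusted p = 0.0073). Mir24-2, the last of the cluster, differed by -0.09 and 0.19 and did not pass.

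The position of the shared genes was read along chromosome 7, where Cox6a2 lies. Of the 50 measured genes on each side of it, 13 of 100 were shared genes, against 9.99% of all genes, and 1, Wdr11, passed in both muscles. Wdr11, a scaffold protein of membrane traffic, lies 12 places after Cox6a2 among the measured genes and fell by 0.46 in diaphragm and by 0.67 in gastrocnemius. Over the whole chromosome without Cox6a2, shared genes made up 9.0% of 1733 genes, while 13 genes (0.75%) passed in both muscles, against 34 of 18122 (0.188%) on the other chromosomes. Those others varied, from 0% on some to 0.613% on chromosome 12, 0.534% on 17 and 0.524% on 8. For genes called in gastrocnemius, chromosomes 17 (1.5%) and 12 (1.23%) had larger shares than chromosome 7 (1.21%).

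Of those 13 genes, 12 lie before Cox6a2 in this order, as do 1506 of the 1733 measured genes (86.9%). Rccd1, Hddc3, Me3, Tpbgl, Arhgef17 and Pgap2 lie from 651 to 458 measured genes before Cox6a2, and Trim12a 358 before it. Rccd1 and Hddc3 lie 2 places apart. Me3, a mitochondrial malic enzyme that makes NADPH, differed by 0.44 and 0.73 and Pgap2, a factor of lipid anchor maturation, by -0.54 and -0.61. The remaining members, Cacng7, Prkd2, Fosb, Ercc2 and Zfp36, lie from 1504 to 1108 measured genes before Cox6a2. The array's genome build is not given in the sources used here, so only the order of genes in GRCm38.p6 was used, and the genotype of these stretches was not measured.

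**Figure D5:**
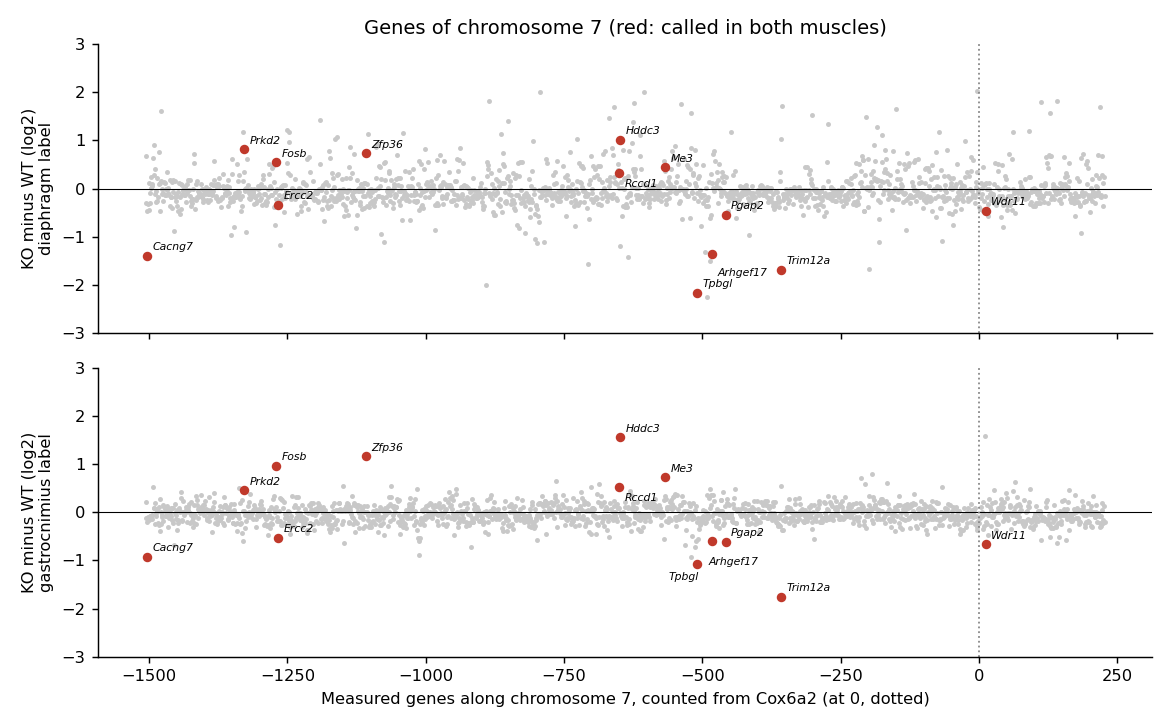
Difference KO minus WT (log2, vertical axes) of the measured genes of chromosome 7 under the diaphragm label (top) and the gastrocnimius label (bottom), in the order of the genes counted from Cox6a2 (horizontal axis, Cox6a2 itself at the dotted line and not drawn). The 13 genes called under both labels are red, and 6 of them lie between 651 and 458 genes before Cox6a2.

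In KO diaphragm, markers of several other cell types stood above their level on the remaining 9 arrays. In bulk RNA, more cells of a type and more RNA per cell cannot be told apart. Over 14 macrophage markers the mean log2 signal was 7.81 to 8.25 in KO diaphragm, 6.44 to 6.94 on the arrays labelled WT diaphragm, 6.74 to 7.03 in WT gastrocnemius and 6.51 to 6.68 in KO gastrocnemius. Only Cd74 of that list was a shared gene, while 9.99% of all genes were. No measured member of the mesothelium, T and NK cell, erythroid, fibroblast and adipocyte lists was a shared gene, 3 of 10 endothelial genes were (Kdr, Esam and Emcn, all higher), and 3 of 10 of the neutrophil and mast cell list were, all 3 of mast cells (Cpa3, Mcpt4 and Cma1). Of the B cell, smooth muscle and Schwann cell lists 1 gene each was shared, Ms4a1 (average 1.34), Mcam (0.42) and Ncmap (-0.32). Among skeletal fiber genes Mb and Myh1 were higher and Pygm was lower. Kdr, the main receptor of vascular endothelial growth factor, differed by 1.55 in diaphragm and 0.36 in gastrocnemius. The endothelial mean was 8.71 to 8.98 in KO diaphragm and 7.98 to 8.23 over the other 9 arrays. The part of these cell types in the shared effect was not tested.

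Some shared genes fall outside these groups. Ptprm, a receptor phosphatase of cell contacts, was at 7.75, 7.84 and 7.88 on the arrays labelled WT diaphragm, and 8.87, 8.83 and 8.90 in KO diaphragm. In gastrocnemius the signal was 7.76, 7.51 and 7.52 in WT and 8.35, 8.42 and 8.55 in KO. No KO array reached a WT array, and its average of 0.95 had, with Trim12a, the smallest adjusted p after Cox6a2 (standard error 0.070, adjusted p = 3.5e-05). Gpnmb, a glycoprotein of lysosome-rich cells, fell by 0.58 in diaphragm and 0.93 in gastrocnemius, and Iqgap2, a scaffold of the cytoskeleton, rose by 0.41 and 1.01. Nnat, an imprinted membrane protein gene, passed in gastrocnemius (-1.22, adjusted p = 0.019) and differed by -0.33 in diaphragm. Of 15 imprinted growth genes 5 were shared higher genes, against 6.23% of all genes, among them Meg3 (1.21 and 0.61) and Mest (1.10 and 0.47).

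The remaining lists held few shared genes. Among all genes 6.23% were shared higher and 3.75% shared lower. Of 18 genes of insulin signalling, glucose uptake and AMPK, 2 were higher and 3 lower, and of 25 genes of glucocorticoid, FoxO and atrophy signalling 2 were higher and 2 lower. Irs2, an adaptor of the insulin receptor that stands in both lists, differed by 0.31 and 0.58, and Fkbp5, a glucocorticoid target, by -1.6 and -0.29. A single gene each was higher among 15 heat shock proteins (Dnajb1), 30 cytosolic ribosome proteins (Rps9, 0.58 on average), 19 interferon response genes (Ifi27, 0.71) and 8 cervical position genes (Hoxa5, 1.6 and 0.14). Of the 10 hindlimb position genes 3 were shared lower genes, and 0 or 1 without any 1 of the 6 diaphragm arrays. Hoxa9 differed by -1.34 and -0.08, with a passing interaction, while Pitx1, a hindlimb determinant, differed by -0.35 in each muscle.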

How the data were processed

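Total RNA (100 ng per array) was hybridised to mouse Gene 1.0 ST arrays. The authors processed the scanner files with RMA in Affymetrix Expression Console at standard settings, version not given in the sources used here, and deposited log2 signals that were background-corrected and normalized between arrays. They ranged from 1.65 to 14.41. Of 35556 probe sets, 21789 with 1 gene symbol were used, and the brightest represented each of 19938 genes (999 had more than 1). Array data hold no read depth.

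The average was fitted in R 4.3.3 with limma 3.58.1 (lmFit, eBayes) with tissue as covariate and genotype as coefficient, on all 12 arrays. Differences within each muscle, the interaction and the muscle differences came from a model of 4 group means. Their tests and standard errors use a common spread per gene, pooled over the 4 groups and drawn toward that of other genes by eBayes. Genes were called at a Benjamini-Hochberg adjusted p under 0.05 over all genes. The first fit was tested on simulated data of 19938 genes: it recovered 98 of 100 genes given a log2 change of 1 and 78 of 100 given 0.5, with 3 false calls. The simulated noise was independent between genes, each change was equal in both muscles, and no WT group resembled the other muscle. These counts therefore do not give the rate of false calls for the real arrays.

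Members and lists were chosen with earlier results of these data known. Named were Cox6a2, the 12 highest and 12 lowest shared genes without overlap in either muscle by their smaller difference, up to 4 shared genes per list (otherwise 2 with the smallest p), and genes called in both muscles; predicted genes were skipped. Other genes were named to complete a count of a list. Replicate numbers recur in the groups. Same-numbered arrays did not deviate together (r from -0.096 to 0.161 over 18 pairs, 2 of them above 0.1), and no block was used. Only pairs of 1 genotype could share a mouse, with r of 0.013, 0.148 and -0.013 in WT and -0.005, 0.025 and -0.008 in KO. With 3 arrays a group, such values cannot show independence. If both muscles came from the same mice, the test of the average wrongly treats 12 arrays as independent. The replicate block below joins KO with WT arrays and does not model the mouse. Alternatives were the replicate block, quantile normalization, median centring, trended and robust variances, a filter at the median signal, averaging a gene's probe sets, leaving out each array, 4 group means, each muscle fitted alone, the methods' t-test and a smaller difference of at least 1.2-fold. Leaving out all 3 arrays labelled WT diaphragm was chosen after seeing the data. Promoter and microRNA sequences are from RefSeq (GRCm38.p6); 250 bases before each start were searched.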

Additional observations from a re-analysis of the deposited data

Results flagged for a closer look

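For 38 of the genes named in the report the genotype difference was not the same under both muscle labels by the test of the difference itself (interaction term of limma over 4 group means, adjusted over all genes). The values given here are the diaphragm difference minus the gastrocnemius difference on the log2 scale, and the arrays labelled WT diaphragm enter each of them.

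Among genes called in both muscles it was 1.53 for Nnt and 1.47 for Lrtm1, and it was -1.09 for Tpbgl, -0.79 for Slc7a2, -0.75 for Arhgef17 and -0.46 for Cacng7. Among metabolic genes it was 1.01 for Acaa2, 0.59 for Suclg2, 0.43 for Cox7a1, 1.11 for Esrrb, 0.53 for Mfn1, -4.19 for Slc16a3 and -0.61 for Pygm. Among genes of stress and protein turnover it was 0.83 for Gsta4, -0.76 for Gclm, -0.75 for Osgin1, -1.38 for Chac1, -0.64 for Psmd8 and -1.31 for Fkbp5. In clock genes it was -1.43 for Rora, -1.27 for Bhlhe41, -0.85 for Tef and -0.71 for Usp2.

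Among muscle genes the value was 2.44 for Casq2, 1.28 for Myl2, 0.74 for Myh1, 0.57 for Mb, -2.25 for Mylk2 and -1.16 for Myf6. In position and cell type genes it was 1.46 for Hoxa5, -1.25 for Hoxa9, 1.98 for Cd74, 2.37 for Ms4a1, 1.30 for Cpa3, 1.19 for Kdr and 0.53 for Esam. The immediate-early receptors Nr4a1 and Nr4a3, which are not shared genes, had -1.61 and -2.77 and went in opposite directions in the muscles.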

How the results depend on the processing

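The number of shared genes, 1991 as reported, was 1012 with the replicate block, 3553 with the average taken from 4 group means and 722 when the smaller difference had to reach 1.2-fold. The methods' t-test at its own threshold gave 694 genes, 648 of them among the shared genes, and 0 after Benjamini-Hochberg adjustment. Leaving out single arrays gave 624 to 2201 (lowest without WT diaphragm replicate 3; 715 without KO diaphragm replicate 3, 846 without KO diaphragm replicate 1, 929 without WT diaphragm replicate 1 or KO diaphragm replicate 2, and 1040 without WT diaphragm replicate 2). Without all 3 arrays labelled WT diaphragm, a fit chosen after the data were seen, 77 genes were called in gastrocnemius, 57 higher and 20 lower, among them 47 of the shared genes (2.36%).

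The 48 genes called in both muscles were 30 after quantile normalization, 38 with the replicate block, 47 with trend and robust variances, 70 after median centring, 59 among genes at or above the median signal, 49 with the mean of all probe sets, 33 with each muscle fitted alone and 31 without the arrays labelled WT diaphragm. Leaving out single arrays gave 15 to 49: 15 without KO gastrocnemius replicate 1 or 2, 21 without its replicate 3, 24, 29 and 23 without WT gastrocnemius replicates 1, 2 and 3, and 30 without WT diaphragm replicate 3. The difference between the WT labels, 92 genes, was 193 among genes at or above the median signal and 39 to 105 when single arrays were left out. The 13 shared genes next to Cox6a2 were 8 with the replicate block and 5 to 12 when single arrays were left out. For the interaction the leave-one-out range was 2354 to 3014 genes, for the difference between the KO muscles 4559 to 5930, and for Cox6a2 -4.97 to -4.85.

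Of the genes recomputed, Nr4a3 (average 0.09, not called) ranged from -0.184 to 0.505 when single arrays were left out, and Mir24-2 (0.05, not called) from -0.007 to 0.1; the cause was not tested. No shared gene that was recomputed changed sign, but 71 of them lost the call when some single array was left out, and 46 under another alternative. Over the 185 genes recomputed, 522 of 3314 values fell short of the threshold that the reported value had passed, 439 of them with a single array left out. Counts of small lists moved as well when single arrays were left out: the shared higher count was 0 to 3 for complex IV assembly factors and for mast cell and neutrophil markers, 1 to 4 for endothelium and 2 to 7 for imprinted growth genes, and the shared lower count was 0 to 5 for the integrated stress response, 1 to 4 for glucocorticoid, FoxO and atrophy genes and for insulin signalling, and 0 to 3 for glycolytic contractile genes. The hindlimb genes ranged from 0 to 4 and were 0 with the replicate block. Same-numbered arrays did not deviate together, but that does not settle whether both muscles came from the same mice, which is not given in the sources used here. With 3 arrays a group, the number of arrays limits the precision of each value, and probes near background understate differences.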
